A study of Mus musculus with 20 samples.

Results

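DPP4+ adipocyte progenitor cells taken from mice after 24 h at 6 °C were compared with DPP4- progenitor cells of mice kept at 22 °C, with DPP4+ cells at 22 °C as the reference point. For each gene the question was whether cold brought DPP4+ cells nearer to the resting DPP4- level, took them further from it, or placed them above or below both resting populations. The comparison used 15 of the 20 libraries of the series, 5 in each of the 3 groups, and the 13057 of 27179 genes whose mean over the libraries reached 10 normalized counts. Expression was measured by RNA-seq in PDGFRb+ cells of inguinal white adipose tissue, a subcutaneous fat depot, sorted by flow cytometry from male C57BL/6 mice. The groups were DPP4- cells of mice at room temperature (22 °C), DPP4+ cells of mice at room temperature, and DPP4+ cells of mice exposed to 6 °C. All 3 groups were selected for PDGFRb, so none stands for the whole stroma of the depot. Nothing in the labels says whether libraries came from separate animals or pools, so p-values measure only the spread between these libraries. In bulk libraries, fewer cells of a type and less RNA per cell cannot be told apart.

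White fat holds mesenchymal progenitors around its vessels and in its fibrous septa, and DPP4, a cell surface peptidase, marks an uncommitted population of them that lies in the interstitium. Cells without DPP4 include preadipocytes that already carry genes of the adipocyte programme, and cells that carry the coagulation receptor CD142. Cold acts on fat through sympathetic nerves, whose noradrenaline raises cyclic AMP in adipocytes by way of beta-adrenergic receptors.

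The labels were checked first. Dpp4 (chr2:62330073-62412315) stood at 105, 67.6, 56.7, 52.2 and 57.9 normalized counts in the resting DPP4- libraries, at 7170.5, 7850.3, 9994, 8264 and 9449 in the resting DPP4+ libraries and at 7871, 10657, 9704, 8675 and 13270.1 in the cold DPP4+ libraries, so that all 10 DPP4+ libraries lay above all 5 DPP4- libraries. The cold effect on Dpp4 within DPP4+ cells was 0.22 ± 0.28 on the log2 scale (SE, limma adjusted p = 0.559). Pdgfrb, which encodes the receptor used for the sort, was present in every library, with means of 4126 ± 333 normalized counts in resting DPP4-, 2942 ± 226 in resting DPP4+ and 1505 ± 80.7 in cold DPP4+ cells (SD, n = 5). The libraries held 10951513 to 17622086 reads assigned to genes. The normalized totals were 16310178 to 17267836 in resting DPP4-, 10238368 to 11493998 in resting DPP4+ and 10815721 to 12108410 in cold DPP4+ libraries. Setting all totals equal moved the median difference over all genes from 0.03 to 0.64 (log2) between the resting populations and from 0.03 to 0.60 between cold DPP4+ and resting DPP4- cells, but from 0.01 to -0.04 for the cold effect. A gene's place relative to the resting DPP4- level therefore moved with the scaling more than its cold effect did. Placements given below are those of the deposited scaling. Changes of placement with totals set equal are stated for some of the named genes, not for every one. Among the 5 cold libraries, replicate 5 had the lowest value for 216 of the 230 genes that rose at least 2-fold above both resting levels (93.9%), and replicate 1 the highest for 177 (77.0%).

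Cold DPP4+ cells were, over all genes, about as far from resting DPP4- cells as resting DPP4+ cells were. The distance of a library to the resting DPP4- mean, the root mean square log2 difference over the tested genes, was 1.33 ± 0.0434 in DPP4+ cells at 22 °C and 1.37 ± 0.0466 at 6 °C (SD, n = 5). The difference of 0.0395 did not pass the exact permutation test (two-sided p = 0.198, where the smallest possible p is 0.00794). It was 0.0566 with p = 0.0476 in the same exact test without resting DPP4+ replicate 1, and 0.00183 with p = 0.968 with totals set equal. The cold libraries lay 0.703 ± 0.0202 from the resting DPP4+ mean (SD, n = 5), in a range of 0.682 to 0.736. For the 3532 genes (27.1%) that differed at least 2-fold between the resting populations, the median cold effect covered 0.0893 of the log2 distance to the resting DPP4- level (quartiles -0.103 and 0.305, where 0 is no movement and 1 is the DPP4- level). Genes higher in resting DPP4+ cells (1799) had a median of 0.156 and genes lower in them (1733) a median of 0.0282. Of the 3532 genes, 1329 (37.6%) moved away by any amount, 450 (12.7%) covered 0.5 or more of the distance and 122 (3.45%) passed the DPP4- level. These shares are descriptions, because both differences use the resting DPP4+ libraries.

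**Figure D1:**
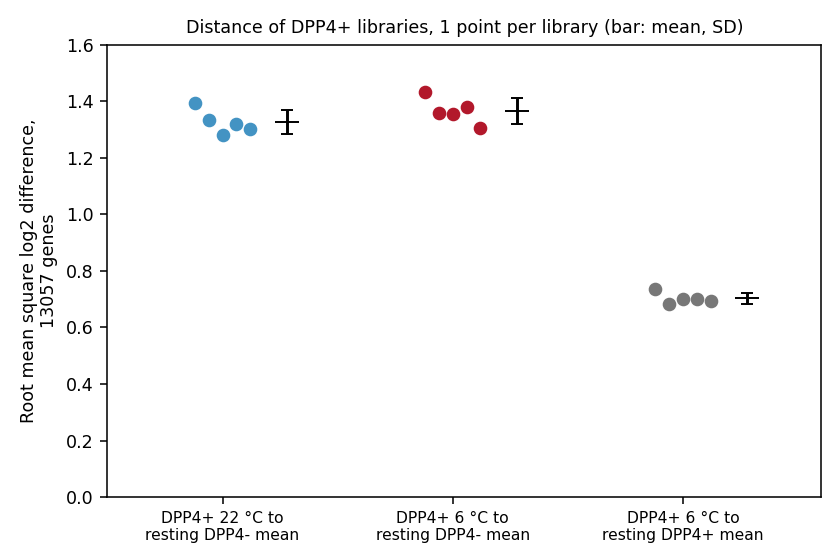
Distance of each DPP4+ library, as the root mean square log2 difference over 13057 genes, to the mean of the 5 resting DPP4- libraries (blue, 22 °C; red, 6 °C) and to the mean of the 5 resting DPP4+ libraries (grey, 6 °C). Points are libraries and bars are the mean and SD of 5, and the red and blue points overlap while all grey points lie below 0.74.

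Tests of single genes placed each gene by 3 differences, each called at an adjusted p under 0.05 (limma, Benjamini-Hochberg). Cold DPP4+ cells differed from resting DPP4- cells in 9840 genes (75.4% of those tested; 5091 higher, 39%, and 4749 lower, 36.4%). Resting DPP4+ cells differed from resting DPP4- cells in 9782 (74.9%). The cold effect in DPP4+ cells was called in 6023 genes (46.1%), 3069 up (23.5%) and 2954 down (22.6%). Cold moved 3042 genes (23.3%) toward the resting DPP4- level. Of these, 1483 (11.4%) stopped short of it, 1160 (8.88%) ended with no called difference from it, and 399 (3.06%) crossed to its far side. It moved 1588 genes (12.2%) away, 796 of them up (6.1%) and 792 down (6.07%). A further 1187 genes (9.09%), with no called difference between the resting populations, left both resting levels in one direction. Outside the resting range were thus 3174 genes (24.3%), 1653 up (12.7%) and 1521 down (11.6%). The resting difference of 5152 genes (39.5%) had no called cold effect.

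A smaller set lay well outside. In 499 genes (3.82%) the cold level was at least 2-fold past both resting levels, 230 above (1.76%) and 269 below (2.06%). With totals set equal 491 of the 499 were still outside in the same direction, 424 of them by 2-fold. The corresponding counts were 487 and 424 after quantile normalization and 495 and 481 without cold replicate 5. Of the 1588 genes moved away 58.8% had the same placement with totals set equal, against 18.5% of those that crossed, 9.7% of those that ended with no called difference, 62.2% of those that stopped short and 7.1% of those outside with no resting difference. By the libraries alone, all 5 cold libraries lay above all 10 resting libraries in 1273 genes (9.75%) and below all 10 in 936 (7.17%).

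**Figure D2:**
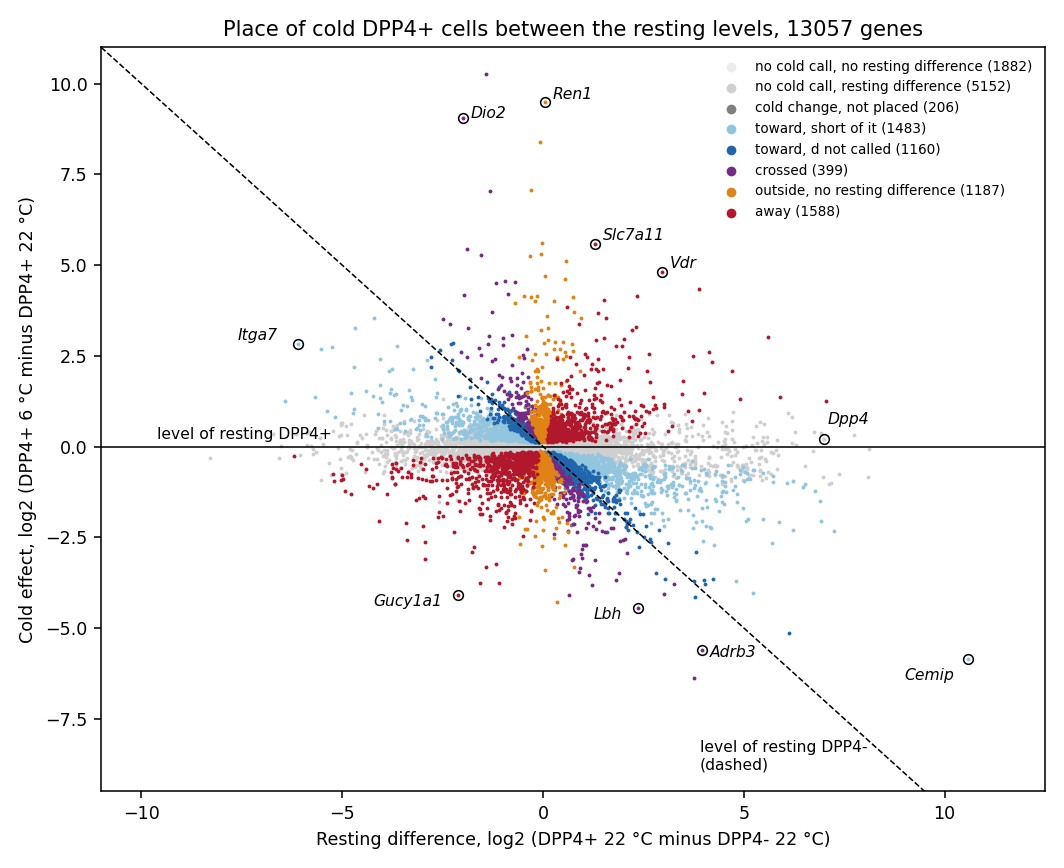
Each of the 13057 tested genes by its resting difference (x axis, log2) and its cold effect in DPP4+ cells (y axis, log2), coloured by placement, with the number of genes of each in the key. Genes on the horizontal line kept the resting DPP4+ level and genes on the dashed line reached the resting DPP4- level, and Dio2 and Ren1 stand far above both lines.

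Genes near the floor in both resting populations reached high levels in the cold. Ren1, the gene of renin, a protease of the renin-angiotensin system (chr1:133350674-133360320), held 1 read over the 5 resting DPP4- libraries and 2 over the 5 resting DPP4+ libraries, but stood at 1151, 895, 912, 975 and 597 normalized counts in the cold libraries. Ramp3, which encodes a partner protein of the calcitonin receptor-like receptor, stood at 0, 4.50, 1.26, 1.54 and 2.57 in resting DPP4-, at 1.87, 4.58, 1.45, 1.25 and 0 in resting DPP4+ and at 1020.3, 861, 819, 1010.5 and 532 in cold DPP4+ libraries. For both genes every cold library lay far above every resting library, and the resting groups did not differ in the test. Il11, the gene of interleukin 11, a cytokine that acts on fibroblasts, had 25.7, 28.5, 18.9, 32.2 and 24.4 in resting DPP4-, 19.3, 15.7, 25.3, 20.7 and 23.3 in resting DPP4+ and 3569, 2988, 3041, 3345 and 1940.1 in cold DPP4+ libraries. The resting groups overlapped, and the cold mean was 115 times the resting DPP4- mean (log2 difference 6.78 ± 0.22, SE, limma adjusted p = 1.48e-17). In the other direction, Rspo2, which encodes a secreted enhancer of Wnt signalling, went from 56.8 ± 6.17 in resting DPP4+ cells to 8.93 ± 4.34 in the cold, against 91.5 ± 42.7 in resting DPP4- cells (SD, n = 5). The cold groups of Ninl, the gene of a centrosome protein, and of Hnmt, which inactivates histamine, also lay under all 10 resting libraries, at means of 31.6 and 17.3. After quantile normalization the resting differences of Rspo2, Ninl and Hnmt were called, so that all 3 moved away.

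Dio2 (chr12:90724552-90739038) led the genes that crossed upward. It encodes the deiodinase that activates thyroid hormone and is a known cyclic AMP-responsive gene of brown fat. Its normalized counts were 17.6, 36.0, 27.7, 73.7 and 59.2 in resting DPP4-, 5.597, 15.7, 5.79, 6.89 and 13.8 in resting DPP4+ and 6607, 5360.5, 5430.4, 5687 and 3476 in cold DPP4+ libraries. Resting DPP4+ cells thus lay below resting DPP4- cells in every library, and cold DPP4+ cells above both. The cold mean was 556 times the resting DPP4+ mean and 124 times the resting DPP4- mean, with limma adjusted p-values of 2.93e-12 and 1.56e-11. Dio2 and Il11 were the named genes at least 2-fold above both resting levels whose promoter window held a full cyclic AMP response element or AP-1 element, which is why their windows are shown. The windows run from 250 bases before to 50 after a RefSeq transcript start on GRCm38.p6, both on the minus strand, chr12:90738989-90739288 for Dio2 and chr7:4778092-4778391 for Il11, with the motif in capitals.
Dio2: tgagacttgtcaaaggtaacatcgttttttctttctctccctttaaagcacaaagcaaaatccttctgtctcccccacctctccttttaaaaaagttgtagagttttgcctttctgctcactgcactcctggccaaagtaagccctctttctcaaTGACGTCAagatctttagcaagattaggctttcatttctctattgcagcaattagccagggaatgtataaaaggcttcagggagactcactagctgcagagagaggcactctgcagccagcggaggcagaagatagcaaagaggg
Il11: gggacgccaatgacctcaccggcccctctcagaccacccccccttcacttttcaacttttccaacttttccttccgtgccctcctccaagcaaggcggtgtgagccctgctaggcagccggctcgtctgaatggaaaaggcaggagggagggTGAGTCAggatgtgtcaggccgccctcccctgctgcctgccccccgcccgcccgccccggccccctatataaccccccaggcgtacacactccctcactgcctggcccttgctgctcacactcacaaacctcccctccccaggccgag
In Dio2 the capitals mark the cyclic AMP response element TGACGTCA, which is its own reverse complement, and in Il11 the AP-1 element TGACTCA read on the opposite strand. TGACGTCA stood in 1.79% of all 32851 promoter windows of the same length and in 3.03% of the 12990 windows of tested genes. TGACTCA, on either strand, stood in 5.20% and 3.78%; the motifs do not overlap each other in these windows. Among the 213 windows of 169 genes at least 2-fold above both resting levels the shares were 1.88% and 4.23%, and among the 279 windows of 196 genes at least 2-fold below both they were 1.43% and 5.02%. Among genes described below, Flt1 held TGACGTCA and F3 held TGACTCA in a window, and both fell below both resting levels. Creb5 held both motifs, and Hspa5 and Srxn1 held TGACTCA. A link of the motifs with the cold effect was not tested. A match describes letters in the window and no site of binding.

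Other genes that crossed upward were Tll1 and Ucp2, and Lbh, Pawr, Lmod1 and Adrb3 crossed downward. Tll1, which encodes a metalloprotease that processes procollagens, stood at 238, 225, 263, 206 and 212 in resting DPP4-, 65.9, 100.2, 124, 109.6 and 80.0 in resting DPP4+ and 1438, 1238, 1287, 1330.2 and 949.8 in cold DPP4+ libraries. None of the 3 groups overlapped. Resting DPP4+ cells lay below resting DPP4- cells, and cold DPP4+ cells lay above the same resting DPP4- cells. Ucp2, a mitochondrial carrier related to the uncoupling protein of brown fat, went from 22.5 ± 4.92 to 227 ± 49.4 in DPP4+ cells, against 85.5 ± 19.3 in resting DPP4- cells (SD, n = 5). In the other direction Lbh, a transcriptional cofactor, had 292, 323, 279.6, 272 and 359 in resting DPP4-, 1779, 1639, 1316, 1641 and 1439.6 in resting DPP4+ and 81.9, 79.6, 62.1, 67.4 and 61.3 in cold DPP4+ libraries. Every cold library lay below every resting library of both populations, and the cold mean was 22.2 times below that of resting DPP4+ cells (log2 difference -4.45 ± 0.11, SE, limma adjusted p = 1.93e-19). Adrb3, the beta3-adrenergic receptor of adipocytes, stood at 4.05, 7.51, 3.78, 9.21 and 2.57 in resting DPP4-, 103, 98.2, 78.9, 88.3 and 93.1 in resting DPP4+ and 1.72, 1.97, 0, 0.853 and 0.748 in cold DPP4+ libraries. All cold libraries lay below all resting ones, with 7 reads in the cold group in all. Pawr, a regulator of apoptosis, went from 52.5 ± 11.7 to 3.28 ± 1.38, against 14.6 ± 5.37 (SD, n = 5). Lmod1, an actin nucleator of smooth muscle, fell from a mean of 105 to 2 reads over the 5 cold libraries, against 6.92 in resting DPP4- cells.

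Pdgfra, the receptor that marks fibroblasts and adipocyte progenitors, crossed too. Its normalized counts were 10102, 8902, 9681, 10583 and 10202 in resting DPP4-, 12181, 11670.3, 11258, 11206 and 11244 in resting DPP4+ and 4883, 4943, 5338, 5229 and 6041 in cold DPP4+ libraries. The cold libraries lay below all 10 resting libraries (cold effect -1.13 ± 0.08, SE, limma adjusted p = 2.91e-11). Pdgfrb fell by 0.96 from a level that was already lower than in DPP4- cells, and this placement became outside with no resting difference when totals were set equal. Of the other 8 fibroblast genes listed, Ly6a, Cd34, Thy1, Dcn, Lum, Col1a1, Pdgfa and Pdgfc, none had a called cold effect, where 46.1% of all genes did.

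Slc7a11, Vdr and Krt20 led the genes that cold raised away from the DPP4- level. Slc7a11, which encodes the cystine transporter that feeds glutathione synthesis (chr3:50364936-50499087), had 16.2, 21.0, 45.3, 46.1 and 48.9 in resting DPP4-, 89.5, 83.2, 70.9, 85.8 and 74.2 in resting DPP4+ and 5107, 4083, 4000.2, 4415 and 2532 in cold DPP4+ libraries. The 3 groups did not overlap, and the cold level was 49.9 times the resting DPP4+ mean and 113 times the resting DPP4- mean. Its resting difference was not called after quantile normalization. Vdr, the vitamin D receptor (chr15:97854427-97908296), had 16.2, 12.01, 16.4, 9.21 and 16.7 in resting DPP4-, 124, 132, 94.8, 126 and 101 in resting DPP4+ and 4211, 3375, 3379.8, 3552 and 2138 in cold DPP4+ libraries. Its resting DPP4+ mean was 8.19 times the resting DPP4- mean. The cold DPP4+ mean was 236 times that same resting DPP4- mean (log2 difference 7.78 ± 0.29, SE, limma adjusted p = 3.21e-15). Krt20, a keratin known from epithelia, rose from 34.2 ± 5.75 to 712 ± 121, with 1.97 in resting DPP4- cells. Of 12 epithelial markers 2 could be tested, and neither had a called cold effect. Their summed level was 44.5 to 63.3 in resting and 48.6 to 90.5 in cold DPP4+ libraries, and its part in the Krt20 result was not tested.

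In the other direction both subunits of soluble guanylate cyclase, the receptor for nitric oxide, were among the leading genes. Gucy1b1 stood at 288, 353, 369, 313 and 246 in resting DPP4-, 110.1, 117, 87.6, 110.2 and 98.9 in resting DPP4+ and 6.04, 7.23, 6.80, 4.26 and 11.2 in cold DPP4+ libraries. Gucy1a1 stood at 136, 243, 225, 246 and 179, 64.7, 39.9, 31.8, 57.6 and 40.7 and 4.31, 1.31, 2.91, 0 and 2.24 in the same order of groups. For both genes the groups did not overlap, and DPP4+ cells, lower at rest, fell to near the floor, 44.1 and 95.5 times below the resting DPP4- mean. Sox9, a transcription factor of mesenchymal progenitors, went from 428 ± 21.9 to 159 ± 17.2, against 3321 ± 229.6 in resting DPP4- cells (SD, n = 5). Serpina3g fell as well, to a mean of 2.08, but belongs to a family of near-identical copies whose reads may be split.

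Cemip (chr7:83932857-84086693), which takes part in the breakdown of hyaluronan, showed the largest called fall among the genes that stopped short of the DPP4- level. It stood at 4.05, 21.0, 5.04, 6.14 and 6.43 in resting DPP4-, 14416, 13017, 11025, 12407 and 11794 in resting DPP4+ and 254, 227, 251, 232 and 142 in cold DPP4+ libraries. Cold thus lowered it 56.7 times, and every cold library was still above every resting DPP4- library (log2 difference 4.74 ± 0.46, SE, limma adjusted p = 3.82e-08). Hspb7, a small heat shock protein of muscle, and Wnt16, a Wnt ligand, fell in the same way, from 270.3 to 41.6 and from 437 to 86.4, with 14.6 and 1.94 in resting DPP4- cells. Vegfd, a lymphatic growth factor, stood at 794, 851, 830.1, 751 and 721 in resting DPP4-, 7162, 6596, 5804, 6473 and 6003 in resting DPP4+ and 1251, 1468, 1362, 1398 and 1506 in cold DPP4+ libraries. Its groups were apart, and cold covered most of the log2 distance of 3.02 between the resting groups (cold effect -2.20).

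Among rises toward the DPP4- level, Itga7, a laminin receptor subunit, had 623, 775, 804, 739.9 and 609.5 in resting DPP4-, 14.9, 7.86, 8.68, 7.52 and 8.72 in resting DPP4+ and 92.3, 73.0, 85.4, 69.9 and 47.9 in cold DPP4+ libraries. Cxcl14, a chemokine of the resting DPP4- cells, had 22612, 15915, 15502, 15817 and 22353, 490.0, 502, 425, 487 and 486 and 3836, 3257, 3353, 3600.2 and 2201 in that order. Prkcb, a protein kinase C isoform, rose from 9.74 ± 2.37 to 102 ± 14.7, against 270.3 ± 47.0 in resting DPP4- cells (SD, n = 5). In each of these 3 genes the cold libraries lay between the resting groups without overlap, and the remaining difference was called (log2 -3.28, -2.51 and -1.39, limma adjusted p = 3.73e-12, 1.02e-13 and 1.59e-08).

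Among the 1160 genes that ended with no called difference from resting DPP4- cells, Fbn2, the gene of fibrillin 2, a microfibril protein of elastic fibres, had 115, 338, 169, 190.4 and 150.5 normalized counts in resting DPP4-, 827, 825, 659, 749 and 742 in resting DPP4+ and 229, 181, 224, 172 and 128 in cold DPP4+ libraries. The cold values fell within the DPP4- values, below all resting DPP4+ values, and the remaining log2 difference was 0.03 with a 95% interval of -0.60 to 0.65. For Mtus2, which encodes a microtubule-associated protein, that interval was -0.84 to 0.55, and for Shroom3, an organizer of the apical actin network, -0.88 to 0.40. Myrip, which links vesicles to myosin, Slc43a2, an amino acid transporter, and Peg10, an imprinted gene, were lower in resting DPP4+ cells and rose to means of 78.2, 130.3 and 524, against 98.8, 156 and 723 in resting DPP4- cells. After quantile normalization Myrip and Slc43a2 stopped short of that level. With totals set equal the remaining differences of Mtus2, Shroom3, Myrip, Slc43a2 and Peg10 turned from negative to 0.38, 0.30, 0.22, 0.30 and 0.12 (log2), called in neither setting. That of Fbn2 went from 0.03 to 0.59 (log2), also called in neither setting.

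**Figure D3:**
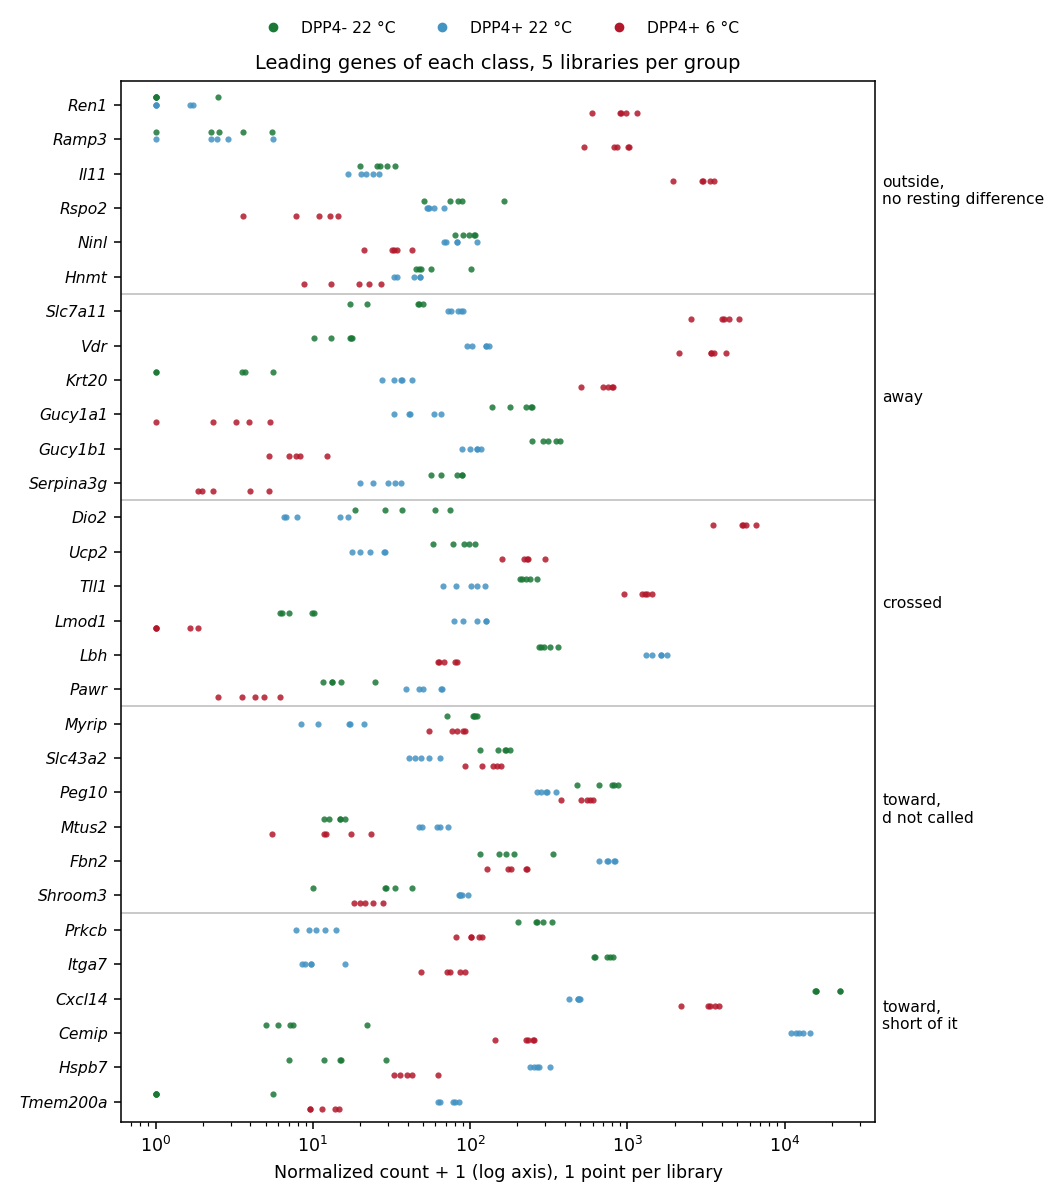
Normalized counts plus 1 (log axis) of the 3 leading genes of each placement and direction, 1 point per library, in resting DPP4- (green), resting DPP4+ (blue) and cold DPP4+ (red) cells. The red points stand to one side of both other groups in the upper 3 panels. They overlap the green points in the fourth and lie between green and blue in the last.

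Markers that set the populations apart at rest mostly kept or widened their difference. Of 23 interstitial progenitor genes, 5 rose further above the DPP4- level (6.1% of all genes) and 1 (Fn1, fibronectin) fell toward it. A further 16 had a resting difference but no called cold effect (39.5% of all genes). Cold brought 0 level with or past DPP4- cells. At rest 19 of the 23 were higher and 3 lower than in DPP4- cells. In cold DPP4+ cells 20 were higher and 3 lower than in resting DPP4- cells, against 39% and 36.4% of all genes. The median difference from resting DPP4- cells was 2.54 at rest and 3.03 after cold, where the medians over all genes were both 0.03. Cd55, a complement regulator that marks these cells, had 759, 842, 769.6, 812 and 877 in resting DPP4-, 3799, 4157, 5402, 4988 and 5843 in resting DPP4+ and 9303, 10754, 9074, 8376 and 9938 in cold DPP4+ libraries. Its groups did not overlap, and Smpd3, a sphingomyelinase, likewise went from 3242 ± 803 to 6276 ± 1255, against 268 ± 89.7 (SD, n = 5). Wnt2, a Wnt ligand, and Creb5, a transcription factor, rose by 0.56 and 0.40 on the log2 scale. Pi16, a secreted marker of the interstitial population, stood at 23811, 25431, 33036, 30707 and 37588 at rest and 34283, 43680.2, 35684, 34853 and 47605 in the cold. Those values overlapped, the cold effect was 0.39 ± 0.25 (SE, limma adjusted p = 0.222), and DPP4- libraries had 294, 257, 215, 275 and 365.

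Of 20 preadipocyte genes, 19 were lower in cold DPP4+ than in resting DPP4- cells and 9 had moved further down, against 36.4% and 6.07% of all tested genes. Lpl, the lipoprotein lipase, had 32985, 40849, 36235, 36331 and 41909 in resting DPP4-, 10004, 9953, 9076, 9989 and 9391 in resting DPP4+ and 6166, 6139, 6211, 6461 and 5395 in cold DPP4+ libraries. Pparg, the master regulator of adipocyte differentiation, had 278, 309, 268, 305 and 309, 109, 116, 89.0, 113 and 96.7 and 73.3, 60.5, 91.3, 85.3 and 57.6, and Col15a1, a basement membrane collagen, 42159.7, 47383, 45977, 46391 and 44363, 2321, 2332, 1888, 2066 and 2074 and 1523, 1389.9, 1399, 1439 and 1218, in the same order. In all 3 genes no group overlapped another, and cold lowered DPP4+ cells below a level already lower than in DPP4- cells. Sparcl1 and Ggt5, a matrix protein and a glutathione-degrading enzyme, also moved down, by 0.27 and 1.06. The 2 that rose were the paired collagen genes Col4a1 and Col4a2. Col4a1 stood at 200009, 155850.0, 157443, 165377 and 183321 in resting DPP4-, 10135, 11411, 10923, 11231 and 11344 in resting DPP4+ and 19935, 17736, 18444, 17968 and 16325 in cold DPP4+ libraries, so that the cold group was still 9.53 times below DPP4- cells. Icam1, an adhesion molecule of committed preadipocytes, had means of 17934 ± 2269.7, 2291 ± 359.6 and 1968 ± 440.3 in that order (SD, n = 5), with no called cold effect (limma adjusted p = 0.137), although it moved away with totals set equal.

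Of 13 genes of the CD142+ population tested, 9 fell and 1 (Mgp) rose, 8 moved away and 12 were lower than in resting DPP4- cells. Of all tested genes 22.6% fell, 12.2% moved away and 36.4% were lower than in resting DPP4- cells. F3, which encodes CD142 itself, had 2582, 2725, 2274, 2928 and 3054 in resting DPP4-, 2361, 2249, 1938, 2289 and 2029.9 in resting DPP4+ and 533, 577, 518, 511 and 518 in cold DPP4+ libraries. Every cold library was below every resting library, at 5.10 times below the DPP4- mean (limma adjusted p = 3.50e-17). Its small resting difference of -0.32 reversed with totals set equal, so that F3 then crossed. Meox2, a homeobox factor, fell from 67.0 ± 4.21 to 18.7 ± 7.32, against 202 ± 31.9 in resting DPP4- cells (SD, n = 5), and Gas6, a ligand of TAM receptor kinases, from 9647 ± 833 to 4072 ± 405, against 14253 ± 2376.

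Thermogenic genes were split. Of 12 that could be tested 5 rose and 4 fell, and 9 lay outside the resting range, against 23.5%, 22.6% and 24.3% of all tested genes. Ucp1, the uncoupling protein of brown fat, had 1 read in resting DPP4- and 6 reads in resting DPP4+ libraries and stood at 81.1, 63.8, 45.6, 56.3 and 52.4 normalized counts in the cold libraries. Those values were far under those of Dio2, and Cidea and Elovl3, genes of brown and beige adipocytes, had means under 10 normalized counts and were not tested. Ppargc1a and Ppargc1b, coactivators of mitochondrial biogenesis, fell below both resting levels, to means of 5.83 and 3.17. Among 6 adrenergic receptors tested 4 fell and 1 rose (22.6% and 23.5% of all genes). Adra1d stood at 22.96, 37.5, 29.0, 16.9 and 15.4 in resting DPP4-, 262, 240.3, 203, 224 and 227 in resting DPP4+ and 21.6, 14.5, 15.5, 16.2 and 12.7 in cold DPP4+ libraries. Its cold values overlapped the DPP4- values at their lower end, and the called difference from them (-0.52) changed sign with totals set equal (0.02). Adra1a, low in DPP4+ cells at rest, had 0 reads in the cold, against 21.0 in resting DPP4- cells.

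Of 20 cyclic AMP and CREB target genes 9 rose and 2 fell, against 23.5% and 22.6% of all tested genes. Crem, a CREB family member with a cyclic AMP-induced repressor form, had 135, 153, 160.0, 144 and 184 in resting DPP4-, 132, 111, 165, 163 and 180.3 in resting DPP4+ and 1657, 1391, 1438, 1515 and 1020.1 in cold DPP4+ libraries. The phosphodiesterase genes, whose enzymes break down cyclic nucleotides, ended in different places. Pde4d rose from 126 to 2051 ± 443 (SD, n = 5) and passed both resting levels, and Pde10a, higher in DPP4+ cells at rest, rose from 435 to 1442. Pde4b rose from 57.2 ± 3.93 to 303 ± 44.02, toward the 435 ± 62.4 of resting DPP4- cells, from which it had no called difference with totals set equal. The 3 nuclear receptor genes of the list diverged less: Nr4a1 and Nr4a3 had no called cold effect and Nr4a2 rose. Crem and Pde4d lay outside the resting range under both other scalings.

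Of 20 glutathione and NRF2 target genes 14 rose, 0 fell and 6 had no called cold effect, and 10 ended outside the resting range (all tested genes: 23.5% rose, 22.6% fell, 24.3% outside). With totals set equal 13 rose and 1 fell, and after quantile normalization 13 rose and 2 fell. Nqo1, a quinone reductase, had 41.9, 33.0, 25.2, 39.9 and 34.7 in resting DPP4-, 101, 93.0, 84.7, 85.2 and 89.4 in resting DPP4+ and 597, 487, 507, 579.8 and 304 in cold DPP4+ libraries, with no overlap of groups. Gsta4, a glutathione transferase, rose from 29.3 ± 4.03 to 225 ± 49.6, against 23.8 ± 4.23 in resting DPP4- cells (SD, n = 5). Srxn1, which repairs peroxiredoxins, had 12644, 13071, 12242, 12017 and 12336 in resting DPP4-, 2004, 2936, 3772, 2892 and 2959 in resting DPP4+ and 13784, 13561, 12639, 13425 and 9351 in cold DPP4+ libraries. The cold values spanned the DPP4- values, with a 95% interval of the log2 difference of -0.32 to 0.31, but the gene crossed with totals set equal (0.56) or after quantile normalization (0.65).

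Of 21 genes of the unfolded protein response and endoplasmic reticulum folding 19 rose and 0 fell, and 13 lay outside the resting range, against 23.5%, 22.6% and 24.3% of all genes. Hyou1, an endoplasmic reticulum chaperone, had 1330.1, 1330.1, 1310.0, 1328 and 1427 in resting DPP4-, 1799.6, 1786, 1738, 1733 and 1722 in resting DPP4+ and 4447, 3379, 3942, 4078 and 3479 in cold DPP4+ libraries. The 3 groups did not overlap. Sdf2l1, a cofactor of such chaperones, rose from 251 ± 21.1 to 617 ± 51.3 (SD, n = 5). Hspa5, the main chaperone of the compartment, rose from 13888 ± 1191 to 27337 ± 2042, where resting DPP4- cells had 24512 ± 1296, and crossed with totals set equal. Of 20 ATF4 target and amino acid stress genes, 10 fell and 4 rose (22.6% and 23.5% of all genes). Pck2, a mitochondrial carboxykinase, fell from 878 ± 63.8 to 332 ± 27.7, against 315 ± 29.6, while Ddit4, an inhibitor of mTOR signalling, rose from 154 ± 16.5 to 1889 ± 415, against 146 ± 38.0 (SD, n = 5).

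Ribosome biogenesis genes rose in 27 of 28 cases, and 22 moved toward the DPP4- level, against 23.5% and 23.3% of all genes. This placement rested on the scaling: with totals set equal 25 rose, 10 moved toward the DPP4- level and 18 lay outside the resting range. In that setting 2378 of all 13057 tested genes rose, 2954 moved toward the DPP4- level and 2874 lay outside. Nop2, a ribosomal RNA methyltransferase, had 991, 911, 974, 959 and 967 in resting DPP4-, 571, 540.3, 598, 645 and 639.8 in resting DPP4+ and 1081, 951, 944, 1059 and 774 in cold DPP4+ libraries. The rise was common to both scalings, and the cold values lay on both sides of the DPP4- values. Nuclear genes of oxidative phosphorylation rose in 20 of 43 cases, with 0 falls, and 18 ended outside the resting range (23.5%, 22.6% and 24.3% of all genes); with totals set equal 12 rose. Their changes were small, as for Cox5a, a subunit of cytochrome oxidase, which went from 353 ± 20.6 to 479 ± 32.1, against 283 ± 14.3 (SD, n = 5). Of 34 cell cycle genes 16 fell and 1 rose, 17 moved toward the DPP4- level and 32 were higher than in DPP4- cells, against 22.6%, 23.5%, 23.3% and 39% of all genes. Kif23, a kinesin of cell division, had 0, 7.51, 1.26, 1.54 and 2.57 in resting DPP4-, 291, 261, 234, 229.9 and 238 in resting DPP4+ and 147, 107, 125, 142 and 70.3 in cold DPP4+ libraries. The 3 groups were apart, with a called difference from DPP4- cells after cold (log2 5.36 ± 0.38, SE, limma adjusted p = 3.46e-11).

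Genes of the contractile list fell in 11 of 17 cases and rose in 2, where 22.6% of all tested genes fell and 23.5% rose. Cnn2, a calponin that binds actin, had 99.9, 125, 121, 130.5 and 111 in resting DPP4-, 2257, 2052, 1701, 1994 and 1815 in resting DPP4+ and 463, 403, 408, 458 and 396 in cold DPP4+ libraries, with no overlap. Ctgf, a matrix-associated growth regulator, fell from 2749.7 ± 251.8 to 816 ± 318, with 535 ± 209 in resting DPP4- cells (SD, n = 5). The list also holds Lbh and Lmod1, described above. Acta2 and Actg2, smooth muscle actins, had lower cold means that did not pass the test. Of 24 Wnt pathway genes 11 fell and 5 rose, and 12 moved toward the DPP4- level, against 22.6%, 23.5% and 23.3% of all tested genes. Dkk2, a Wnt antagonist, had 975, 1332, 1092, 978 and 964 in resting DPP4-, 1668, 1816, 1570.4, 1642 and 1626 in resting DPP4+ and 310.5, 433, 393, 476 and 485 in cold DPP4+ libraries. Nkd2, an intracellular inhibitor of the pathway, fell from 159 ± 14.7 to 35.7 ± 6.99 and likewise passed below the 94.9 ± 12.6 of DPP4- cells (SD, n = 5). Of 25 BMP, activin and TGF-beta genes 6 rose and 5 fell, near the 23.5% and 22.6% of all tested genes. Inhba, which encodes the activin A subunit, had 13.5, 21.0, 22.7, 30.7 and 16.7 in resting DPP4-, 331, 305, 235, 295 and 249 in resting DPP4+ and 2074, 1625, 1657, 1813 and 1026 in cold DPP4+ libraries. Its groups were apart, and cold DPP4+ cells lay further above resting DPP4- cells than resting DPP4+ cells did.

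Cytokine and chemokine genes moved in both directions. Of 34 cytokine and growth factor genes 10 rose and 8 fell, 11 to outside the resting range, shares near those over all tested genes (23.5%, 22.6% and 24.3%). Il33, an alarmin that acts on innate lymphoid and regulatory T cells, had 1302, 1877, 1850.4, 2604 and 2178 in resting DPP4-, 842, 1149, 1204, 1231 and 1179 in resting DPP4+ and 5966, 5351, 5183, 5704 and 4229 in cold DPP4+ libraries. All cold libraries lay above all resting libraries, and with totals set equal the resting difference of -0.78 was no longer called. Ccl2, a monocyte chemoattractant, had no called difference in any of the 3 comparisons, with means of 10291 ± 1362, 11398 ± 2630.0 and 13144 ± 3041 (SD, n = 5), although its resting difference was called with totals set equal or after quantile normalization. Cxcl12, which retains haematopoietic cells, fell from 6888 ± 588 to 3052 ± 412, against 9792 ± 1102. Interferon-stimulated genes mostly stayed low: 27 of 30 were lower than in resting DPP4- cells, and 22 had a resting difference and no called cold effect, against 36.4% and 39.5% of all genes. All 15 MHC class I genes were lower in cold DPP4+ than in resting DPP4- cells (36.4% of all genes). Of these, 13 had a resting difference and no called cold effect (39.5% of all genes). Of 28 immediate early and dissociation genes, known to respond to tissue digestion, 20 had a resting difference and no called cold effect and 23 were lower than in resting DPP4- cells (39.5% and 36.4% of all genes).

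**Figure D4:**
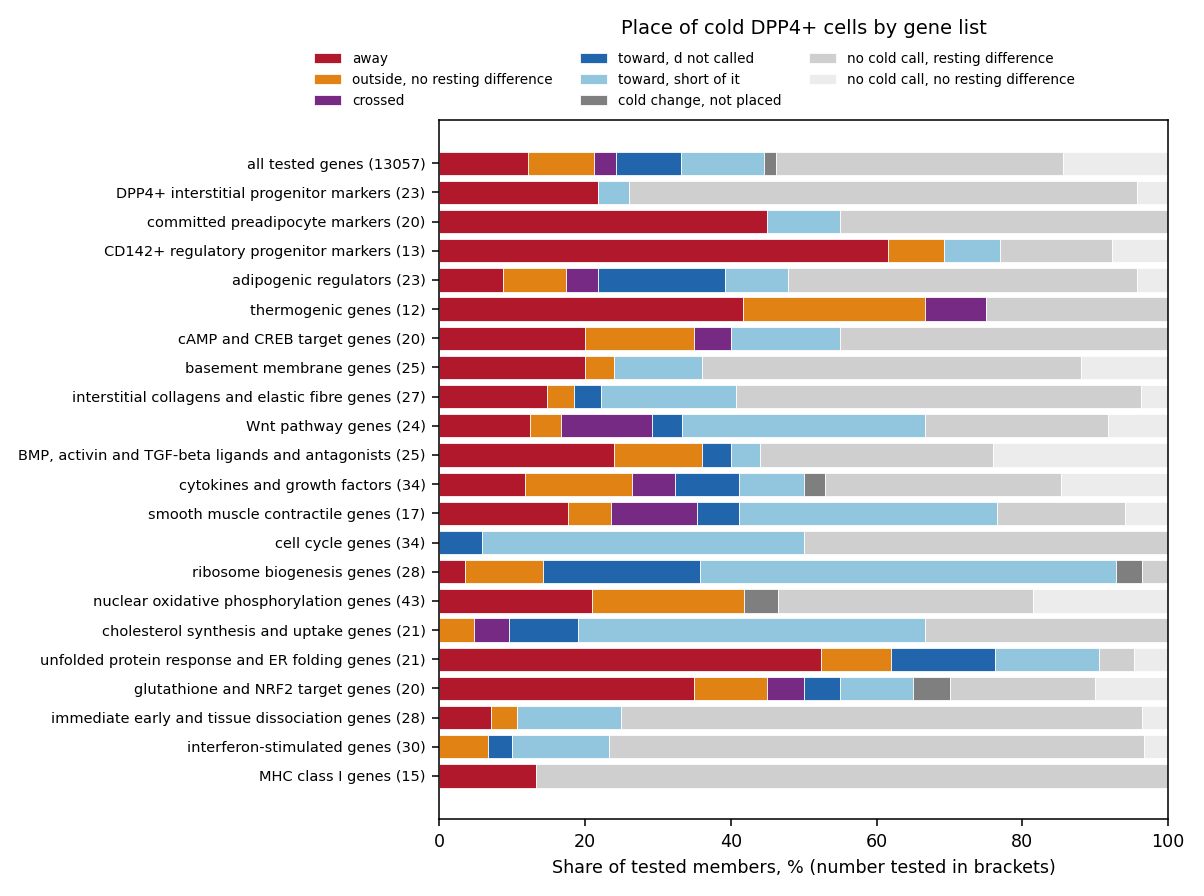
Share of the tested members of each list (%, number tested in brackets) in each placement, with all tested genes in the top bar. Red, orange and purple are outside the resting range, blues are toward the DPP4- level, and greys have no called cold effect or were not placed; interferon, MHC class I and interstitial progenitor genes are mostly grey.

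Markers of other cell types differed between the populations, and their part in these results was not tested. The summed level of 12 pericyte markers was 38021 to 45802 normalized counts in resting DPP4- and 1967 to 2489 in resting DPP4+ libraries. In cold DPP4+ libraries it was 1527 to 2382. Of 10 markers tested, 8 were lower there than in resting DPP4- cells (36.4% of all genes). Steap4, also among the preadipocyte genes above, made up most of the first sum (35776 ± 3297, SD, n = 5), while Rgs5, which defines pericytes, had means of 22.3, 4.95 and 7.62 in the same order. The sum of 12 endothelial markers was 1943 to 2097, 1138 to 1275 and 1164 to 1322 in that order. Most of that sum is Eng, an endothelial receptor that stromal cells also express, while Pecam1 and Cdh5 had no called cold effect. Kdr, the main VEGF receptor of endothelium, rose from 30.3 ± 11.3 to 251 ± 47.8, against 40.4 ± 11.2, but Flt1, another VEGF receptor, fell from 91.5 ± 5.02 to 32.9 ± 6.26, against 82.0 ± 8.72 (SD, n = 5). The sum of 14 myeloid markers was 284 to 344 in resting DPP4-, 189 to 220.1 in resting DPP4+ and 188 to 279 in cold DPP4+ libraries. Of 6 tested, 1 (Csf1r) rose in the cold, against 23.5% of all genes. Lymphocyte markers summed to 125 to 150.4, 47.3 to 83.2 and 16.4 to 60.5, and granulocyte and mast cell markers to 24.3 to 276, 23.2 to 28.2 and 17.9 to 48.0. Schwann cell markers summed to 2735 to 3176, 3775 to 4137 and 4029 to 4914, mostly from Pmp22, which fibroblasts express. Mesothelial, epithelial, skeletal muscle and erythroid markers summed to at most 182, 90.5, 96.7 and 30.2 in any library, Hba-a1, an erythroid globin gene, was at 0 in all 15, and Slpi, a secreted protease inhibitor, was the 1 mesothelial gene with a called cold effect (3.47 to 72.5).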

How the data were processed

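PDGFRb+ cells of mouse inguinal fat, sorted by DPP4, gave 20 libraries, of which 15 are compared here. The submitters' processing notes name GRCm38 and mm10 as builds and, as tools, DESeq2 1.6.3, featureCounts 1.4.6, HISAT2 2.0.1 and Trim Galore 0.4.1. The annotation and the use of strand are not given in the sources used here, so reads of genes that overlap, on 1 strand or on both, may be mixed. The values are a normalized signal as deposited by the authors, with the steps of counts per gene over 1 size factor per library. Steps of the values gave back whole reads for 100% of values (tolerance 0.1 read, largest distance 0.0012). Of 27179 rows, 958 had no symbol and were kept under their gene ID (0.0610 to 0.0824% of reads), 26 symbols turned into dates were restored, and 25275 IDs were found in a RefSeq table, which gave the coordinates (GRCm38.p6).

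Genes with a mean of at least 10 over the 20 libraries were tested on log2(normalized count + 1) with limma 3.58.1 (4 group means over all 20 libraries, 16 residual degrees of freedom, trend, robust) in R 4.3.3. Log2 differences are on that scale, which understates the change of low genes, ratios are of group means, and p-values are two-sided with Benjamini-Hochberg adjustment within a comparison. The procedure was tested on simulated data. Genes were placed by the calls of 3 differences that share libraries, so no overlap or correlation between these is given. Named genes are the 3 leading genes of each placement and direction (established symbol, a group mean of at least 50, same placement with totals set equal, groups of 5 apart), up to 4 members per list with the largest called cold effect, and a fixed set of markers. A few list members outside that rule (Col4a2, Cidea, Elovl3, Nr4a1 to Nr4a3, Fn1, Mgp, Acta2, Actg2, Pecam1, Cdh5, Eng, Pmp22, Steap4, Rgs5, Hba-a1 and the fibroblast genes) were named after their values were seen. Values of 2 further genes are not reported here. The members and the 43 gene lists were chosen with earlier results of these data known. Promoter windows come from RefSeq (26 of the 30 leading genes matched). Alternatives were equal totals, quantile normalization, other pseudocounts and filters, a threshold of 0.01, a replicate block, the 15 libraries alone, each library left out, and, on the whole reads, DESeq2 1.42.0 and the quasi-likelihood test of edgeR 4.0.16. Depth of 10951513 to 17622086 reads limits genes near the floor, which are given as reads.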

Additional observations from a re-analysis of the deposited data

Results flagged for a closer look

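In groups of 5 libraries, 17 of 218 sets of values tested for the genes named had 1 library far from the other 4 (a gap to the nearest other library, relative to the range of the group, above Dixon's 95% critical value). Chance flags about 1 in 20 such groups. In resting DPP4- cells replicate 1 stood above the other 4 for Hnmt (99.9 normalized counts, others 44.1 to 55.3), Gas6 (18376, others 12525 to 14002), Pde4b (544, others 386 to 421), Ctgf (898, others 370.0 to 512) and Dpp4 (105, others 52.2 to 67.6). Replicate 5 of that group stood above for Hyou1 (1427, others 1309.99 to 1330.1), Hspa5 (26748, others 23425 to 24338) and Ccl2 (12607, others 8986 to 10031), and below for Myrip (70.7, others 103 to 109). Replicate 3 stood above for Scd1 (1344, others 1089 to 1159). In resting DPP4+ cells replicate 3 was low for Cxcl14 (425, others 486 to 502), replicate 4 high for Shroom3 (95.8, others 84.5 to 87.7) and replicate 1 low for Il33 (842, others 1149 to 1231). In cold DPP4+ cells replicate 5 was low for Cemip (142, others 227 to 254) and Srxn1 (9351, others 12639 to 13784) and high for Wnt2 (1607, others 767 to 954), and replicate 2 was high for Sparcl1 (343, others 286 to 298). Cold replicate 5 was the lowest of its group for all 15 leading genes whose cold effect was up.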

How the results depend on the processing

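Scaling mattered most. With totals per library set equal, genes higher in cold DPP4+ than in resting DPP4- cells numbered 8758 and lower genes 2286, those of the resting difference 9107 and 2039, genes that ended with no called difference 765, and genes outside with no resting difference 708. In the same setting the differences of Adra1d (0.022), Pde4b (0.043), Nop2 (0.56) and Srxn1 (0.56) from resting DPP4- cells changed sign, as did Srxn1 after quantile normalization (0.65); the cause was not tested. At a threshold of 0.01 the genes moved away numbered 1000, those that stopped short 879 and those that crossed 216. The distance to the resting DPP4- mean passed the exact test without resting DPP4+ replicate 1 (0.0566, p = 0.0476). Leaving out each library in turn gave a difference in distance of 0.0225 to 0.0566, 9575 to 9798 genes for cold DPP4+ against resting DPP4- (4963 to 5073 higher, 4605 to 4735 lower), 5443 to 6191 for the cold effect, 9437 to 9906 for the resting difference, 2836 to 3450 outside the resting range and 2591 to 3106 toward DPP4-. edgeR called 9834 genes in the main comparison, with 3339 outside and 3320 toward, and DESeq2 9855, 3360 and 3370. The correlations of the deviations of same-numbered libraries from their group means ranged from -0.0889 to 0.267 over the 15 pairs of the 3 groups, 11 were above 0 and 4 above 0.1, and in 4 the own number correlated best. Between DPP4+ and DPP4- cells in the cold all 5 were above 0, and in 4 the own number correlated best. Not every pair passed 0.1, and the labels do not say what the numbers mark, so the main fit did not pair the libraries. A replicate block, which joined the same numbers across both temperatures, gave 9848 genes, 3187 outside and 3018 toward. Pairing of DPP4+ and DPP4- libraries within 1 temperature was not tested. For single genes 4711 values kept direction and side of the threshold, 51 lost the threshold and 22 gained it. A further 28 changed sign, the 5 above and 23 that were called in neither setting. The resting difference of F3, which also reversed with totals set equal, is not among the 5.

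Genes near the floor, such as Ren1, Ucp1, Adrb3 and Lmod1, rest on few reads in at least 1 group, and floors cover counting error only.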

Other observations

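Metabolic lists not described above differed in where their genes ended. Of 21 glycolysis and glucose uptake genes 13 rose and 2 fell in cold DPP4+ cells, and 10 lay outside the resting range, where 23.5% of all tested genes rose, 22.6% fell and 24.3% lay outside. Slc16a3, a lactate exporter, had 16.2, 28.5, 31.5, 29.2 and 25.7 normalized counts in resting DPP4-, 80.8, 67.5, 76.7, 77.0 and 72.0 in resting DPP4+ and 748, 605, 627, 691 and 397 in cold DPP4+ libraries, with no overlap of groups (limma adjusted p = 6.11e-14 for cold DPP4+ against resting DPP4-). Slc2a1, a glucose transporter, rose from 524 ± 78.9 to 928 ± 116 but stayed below the 2429 ± 257 of resting DPP4- cells (SD, n = 5). Of 15 mature adipocyte genes 3 rose, 3 fell and 3 lay outside. Dgat1, an enzyme of triglyceride synthesis, had 316, 251, 277, 264 and 283 in resting DPP4-, 297, 271, 283, 280.0 and 279.9 in resting DPP4+ and 2498, 2089.5, 2116, 2297 and 1395 in cold DPP4+ libraries. Scd1, a fatty acid desaturase, rose from 4309 ± 125 to 10896 ± 1729, against 1165 ± 103 (SD, n = 5). Of 21 cholesterol synthesis and uptake genes 11 rose and 3 fell, 2 lay outside and 13 moved toward the DPP4- level (23.3% of all genes). Idi1, an isomerase of that pathway, rose from 154 ± 19.8 to 304 ± 46.5, with 649 ± 121 in resting DPP4- cells (SD, n = 5).

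Of 17 circadian genes 4 rose and 4 fell, near the 23.5% and 22.6% of all tested genes. Dbp, an output regulator of the clock, had 10.8, 9.01, 17.6, 12.3 and 11.6 in resting DPP4-, 189, 158, 153, 149.7 and 142 in resting DPP4+ and 43.99, 69.7, 45.6, 51.2 and 89.7 in cold DPP4+ libraries, and Per3, a period gene, fell from 536 ± 41.5 to 194 ± 40.3, against 146 ± 20.03 (SD, n = 5). The time of day of sampling is not given in the labels, and its part in these values was not tested. Of 23 HOX genes, which record body position, 9 fell and 2 rose, against 22.6% and 23.5% of all tested genes. After quantile normalization 3 fell and 5 rose, where 2860 of all 13057 tested genes fell and 2967 rose. Hoxc6 rose from 319.7 ± 16.5 to 573 ± 94.0, away from the 126 ± 21.2 of resting DPP4- cells (SD, n = 5).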
